A study of Mus musculus with 6 samples.

Results

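Circular RNAs (circRNAs) that had a value above 0 in a single library were examined in the prefrontal cortex of aged mice. They were chosen by the deposited expression values themselves: a circRNA was a member when it was detected in exactly 1 of the 6 libraries, whichever library that was, and 28502 of the 71481 listed circRNAs (39.9%) met this rule. Every listed circRNA was detected in at least 1 library. Each library came from the prefrontal cortex of 1 wild type male C57BL/6 mouse, 18 months old by the age label, whereas the sample titles read 17M. In the PND group (n = 3), the mice were given 1.5% isoflurane for 30 min and then an exploratory laparotomy of 30 min under isoflurane. Lidocaine cream and povidone iodine were then applied to their incision. PND stands for the postoperative neurocognitive disorder that this procedure models. The mice of the CON group (n = 3) had neither anesthesia nor operation, so isoflurane and surgery cannot be told apart in this design. All mice were drawn from arms of 13, and those of both arms had gone through the behavioral tests of the study before the brain was taken.

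A circRNA is a closed loop formed when the spliceosome joins the end of an exon back to the start of the same or an earlier exon, a reaction called back-splicing. Without free ends such loops resist exonucleases, which is why RNase R, an enzyme that degrades linear RNA, was used to enrich them. Brain is known for a rich circRNA population, in which a modest number of loops from synaptic and neuronal genes are abundant and a very long list of further loops is seen at very low level. Most of the single-library circRNAs lie at the far end of that list, although a few had high values in their library. The files give circRNA identifiers without gene, position or sequence, so host genes, marker genes of the tissue and sequences are not described here. In bulk tissue, fewer cells with a circRNA and fewer copies per cell cannot be told apart.

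The values were given as SRPBM, back-splice junction reads scaled to the reads of the sample, and the number of junction reads behind each value was inferred from the equal steps between values. The smallest positive value in every file was 2 steps and was taken as 2 reads, so that a circRNA listed at 0 may have had up to 1 read. Inferred junction reads numbered 1265683 to 1320298 per PND library and 930306 to 1015247 per CON library. The 2-read limit corresponded to 0.230, 0.259 and 0.231 SRPBM in PND replicates 1 to 3. In CON replicates 1 to 3 it was 0.275, 0.260 and 0.253 SRPBM. This limit is lower where a sample has more reads in total. It overlapped between the groups, whereas the junction reads did not.

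More of these circRNAs came from the PND libraries. PND replicates 1 to 3 held 6075, 6404 and 5780 circRNAs found nowhere else, and CON replicates 1 to 3 held 4134, 2884 and 3225. Every PND library held more of them than every CON library, and CON replicate 1 stood above the other CON libraries. The mean per library was 6086 ± 312 for PND and 3414 ± 646 for CON (SD, n = 3 each), a ratio of 1.78. In total 18259 (64.1%) were private to a PND library and 10243 (35.9%) to a CON library, while the PND libraries held 57.1% of the junction reads of the series and 56.6% of all detections. No test was made of these counts, because detection in the same 6 libraries chose the members.

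**Figure D1:**
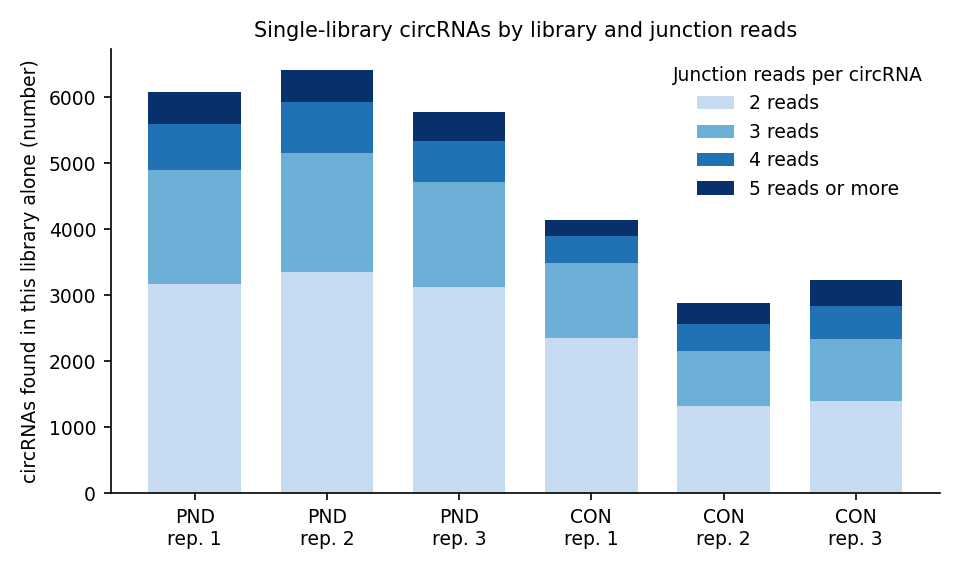
Number of circRNAs found in that library alone (y axis) for each of the 6 libraries (x axis), with the bars divided by junction reads per circRNA. The 3 PND bars lie between 5780 and 6404 and the 3 CON bars between 2884 and 4134, and circRNAs with 2 reads form the largest block in every bar.

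The higher number in the PND group went with more junction reads and more detected circRNAs per library. Set against junction reads, PND replicates 1 to 3 had 4601, 4929 and 4567 single-library circRNAs per 1000000. CON replicates 1 to 3 had 4072, 3100 and 3332. As a share of the circRNAs detected in each library, they made up 15.2%, 15.7% and 14.8% for PND replicates 1 to 3 and 11.9%, 10.2% and 11.2% for CON replicates 1 to 3. On both scales the groups did not overlap, and the PND mean was 1.34 and 1.37 times the CON mean. The excess was not limited to this class. PND replicates 1 to 3 held 4372, 4470 and 4085 circRNAs found in 2 libraries. CON replicates 1 to 3 held 3034, 1831 and 1886. For circRNAs found in 3 libraries the numbers were 4052, 4258 and 3913 for PND and 3101, 1834 and 1898 for CON. In both classes the groups did not overlap, in number or as a share of the detected circRNAs. In contrast, circRNAs found in all 6 libraries made up 39.2% to 40.8% of those detected in a PND library, while CON replicate 1 had 45.9%, and CON replicates 2 and 3 had 56.6% and 55.3%.

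**Figure D2:**
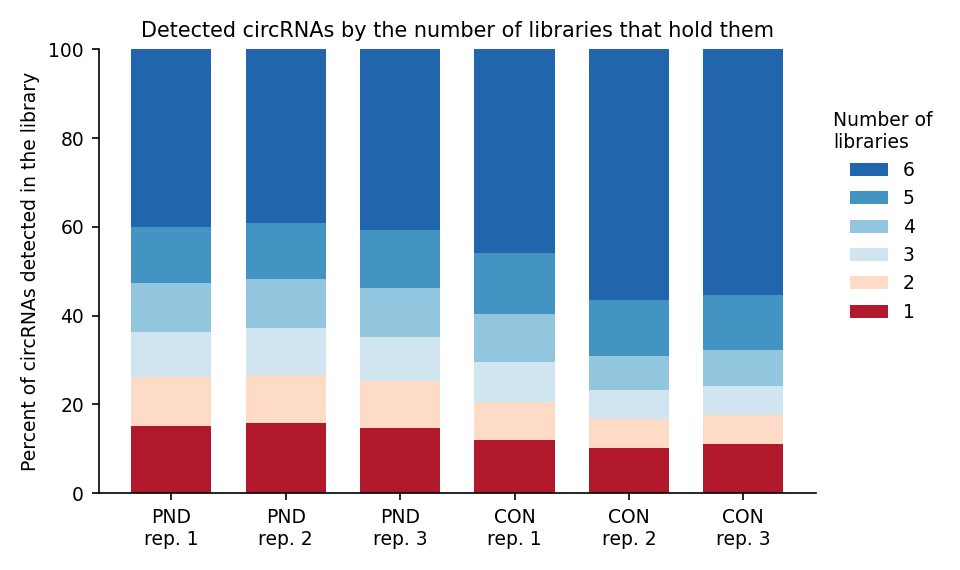
Percent of the circRNAs detected in each library (y axis) by the number of libraries in which they were found, from 1 (bottom, red) to 6 (top, dark blue). The red block spans 14.8% to 15.7% in the PND libraries and 10.2% to 11.9% in the CON libraries.

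Although they were the most numerous class, these circRNAs carried little of the signal. They held 83746 of 6798696 junction reads (1.23%), close to the 1.09% and 1.10% held by the 9839 circRNAs found in 2 libraries and the 6352 found in 3 libraries. By library, they held 1.34%, 1.40% and 1.29% of the junction reads of PND replicates 1 to 3 and 1.22%, 0.948% and 1.06% of those of CON replicates 1 to 3. The groups did not overlap, but PND replicate 3 lay only a little above CON replicate 1. They did overlap without PND replicate 3, when CON replicate 1 had 1.74% and PND replicate 1 had 1.65%. In that case circRNA.60150, otherwise found in 2 libraries, entered with its 3038 reads in CON replicate 1. The groups also overlapped after the libraries were thinned to the same number of junction reads. CON replicate 1 then had 1.39% and PND replicates 1 and 3 had 1.35% and 1.33%. The group means were 1.35% ± 0.052 and 1.08% ± 0.14 (SD, n = 3 each). The summed SRPBM of these circRNAs, scaled to the reads of each sample, was 2042, 2356 and 1891 for PND replicates 1 to 3. For CON replicates 1 to 3 it was 1706, 1149 and 1299.

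Most of them sat at or next to the detection limit. Exactly 2 reads were found for 14706 (51.6%), 3 reads for 8042 (28.2%), 4 reads for 3392 (11.9%) and at least 5 reads for 2362 (8.29%). The mean was 2.94 reads and the median 2 reads. Counting error alone is wide at this level, since the exact Poisson 95% interval of 2 reads runs from 0.242 to 7.22 reads. For comparison, 38.3% of the values of circRNAs found in 2 libraries and 2.50% of the values of those found in 6 libraries were 2 reads, so low values were spread over the whole series but were most common here.

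The share at 2 reads did not separate the groups. PND replicates 1 to 3 had 52.1%, 52.4% and 54.0% of their single-library circRNAs at 2 reads, and CON replicates 1 to 3 had 56.9%, 45.6% and 43.2%. CON replicate 1 had the highest share and the other CON libraries the lowest, with the PND libraries in between. The ratio of 2-read to 3-read circRNAs gave the same order, with 1.83 to 1.96 for the PND libraries, 2.07 for CON replicate 1, and 1.57 and 1.47 for the other CON libraries. Between 5 and 9 reads, CON replicate 1 held 228 single-library circRNAs, fewer than the 310 and 391 of CON replicates 2 and 3, whereas the PND libraries held 434 to 466. CON replicate 1 therefore exceeded both other CON libraries among circRNAs of 2 or 3 reads and among those of 20 reads or more, not among those of 4 to 9 reads.

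**Figure D3:**
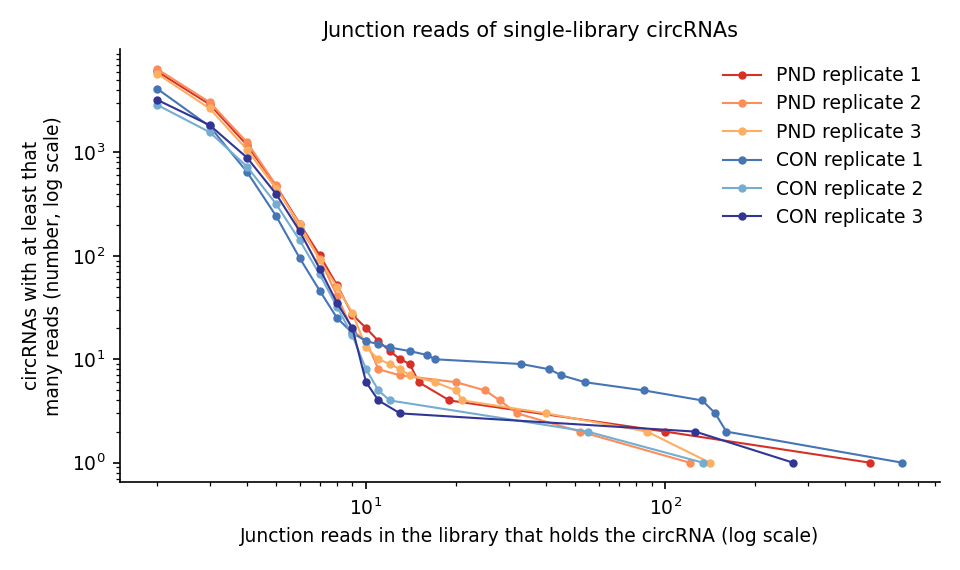
Number of single-library circRNAs with at least a given number of junction reads (y axis, log scale) against that number (x axis, log scale), with a line for each library. All 6 lines fall steeply from 2 to about 10 reads and then run flat to their highest members, which range from 121 reads in PND replicate 2 to 621 reads in CON replicate 1.

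The rule was then applied again with other ways of counting. With the junction reads of every library thinned to the 930306 of the smallest, 25401 circRNAs were found in a single library. Of these, 22141 were among the original 28502. PND replicates 1 to 3 then held 4614, 4919 and 4653 of the 25401 and CON replicates 1 to 3 held 4406, 3293 and 3516. The PND libraries still lay above the CON libraries, but CON replicate 1 came close to the lowest PND library. The ratio of the group means fell from 1.78 to 1.26. As a share of the detected circRNAs in the thinned libraries they were 13.3% to 13.9% for the PND libraries, 13.1% for CON replicate 1, and 11.7% and 12.3% for the other CON libraries. Only the total of junction reads was matched in this way. CON replicate 2, the smallest library, was left as deposited, whereas in the others values that fell under 2 reads were set to 0, on top of the 2-read limit of the deposited values.

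A stricter limit gave a similar order between the groups and another order among the CON libraries. When at least 3 reads were needed for detection, 19710 circRNAs were found in a single library, with 3821 to 4353 per PND library and 2173 to 2613 per CON library. When at least 5 reads were needed, 9897 were found in a single library, with 1908 to 2197 per PND library and 1143 to 1398 per CON library. The ratio of the group means was 1.70 and 1.67. With 5 reads CON replicate 1 (1160) no longer stood apart from CON replicates 2 (1143) and 3 (1398). Of the 9897, the original members numbered 2362, and the others had 2 to 4 reads in at least 1 further library.

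**Figure D4:**
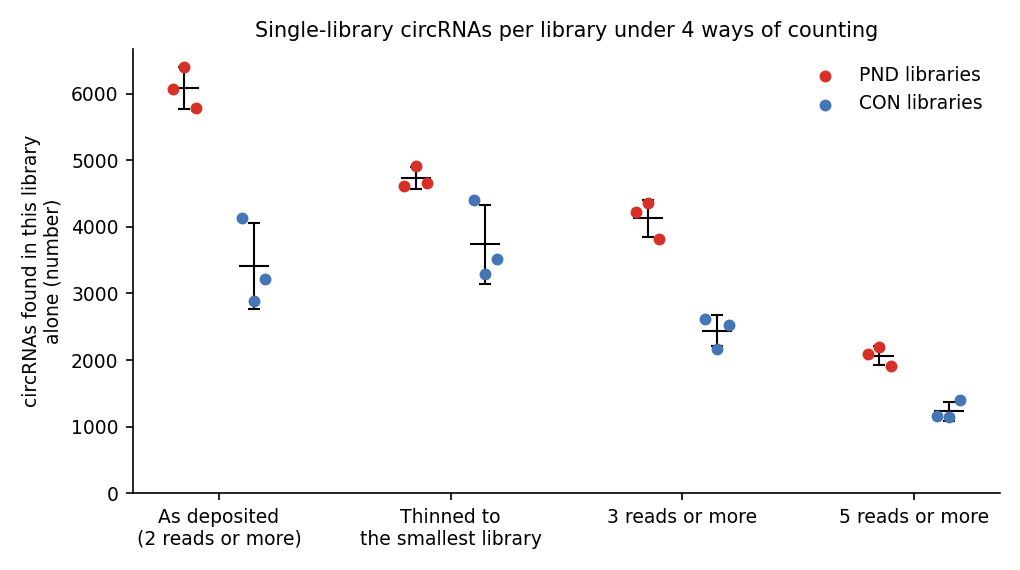
Number of circRNAs found in a single library (y axis) for each library as a point, with the mean and SD of each group of 3 in black, under 4 ways of counting (x axis). PND points lie above CON points in each, and the lowest PND library (4614) and the highest CON library (4406) lie closest after thinning.

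The edge of the rule was also examined. Just inside it lay the 14706 circRNAs with 2 reads in a single library. Just outside it lay 6007 of the 9839 circRNAs found in 2 libraries (61.1%), whose lower value was 2 reads, and 1538 of these had 2 reads in both libraries. The higher value of these 6007 did not exceed 16 reads. No circRNA with 20 or more reads in a library was therefore kept out of the rule by a single further value at the 2-read limit.

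The counting error of the values that chose the members was also described. The exact Poisson 95% interval of each was compared with that of the 1 read that may go unlisted in every other library, both scaled to SRPBM, whose upper end is 5.57 reads. Since every member is at 0 in the 5 other libraries by the rule, the outcome is no test of absence. It depends only on the number of reads and on the SRPBM scale of the libraries. The intervals were apart from those of all 5 other libraries for 46 circRNAs (0.161%). The lowest of them had 11 reads in CON replicate 1, 12 reads in CON replicate 2 and 13 reads in each of the other libraries. Of the 46, PND replicates 1 to 3 held 10, 7 and 8 and CON replicates 1 to 3 held 14, 4 and 3. These intervals cover counting error alone and treat every read as independent. They may be too narrow even for counting error, because reads without molecular identifiers are not independent molecules.

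A small set stood far above the rest. At least 20 reads in a single library were found for 26 circRNAs (0.0912%), 13 from PND and 13 from CON libraries. They held 3074 reads, which is 3.67% of the reads of all single-library circRNAs. Of the 13 in the CON group, 9 came from CON replicate 1 and 2 each from CON replicates 2 and 3, and the PND libraries held 2, 6 and 5. At 100 reads or more there were 11, of which 4 came from PND and 7 from CON libraries. The excess of the PND group among rare circRNAs was therefore not seen among the highest ones, where the numbers are small and 1 CON library held most of the CON members.

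The highest member of each library was as follows. circRNA.61778 had 621 reads in CON replicate 1 (85.5 SRPBM, exact Poisson 95% interval 78.9 to 92.5) and a value of 0 in the 5 other libraries. It ranked 219th among all circRNAs of that library. circRNA.58221 had 485 reads in PND replicate 1 (55.9 SRPBM, interval 51.0 to 61.1), where it ranked 411th, and 0 in the 5 others. Both identifiers thus ranked high in a single library and were below the limit in the others, including those of the same group. Whether the same back-splice site was listed under another identifier in the other libraries was not tested. circRNA.52758 had 268 reads in CON replicate 3 (33.9 SRPBM, interval 30.0 to 38.3). circRNA.124290 had 141 reads in PND replicate 3 (16.3 SRPBM, interval 13.7 to 19.2). circRNA.52502 had 134 reads in CON replicate 2 (17.5 SRPBM, interval 14.6 to 20.7), and circRNA.84315 had 121 reads in PND replicate 2 (15.7 SRPBM, interval 13.0 to 18.8). These 4 were likewise listed at 0 in every other library.

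**Figure D5:**
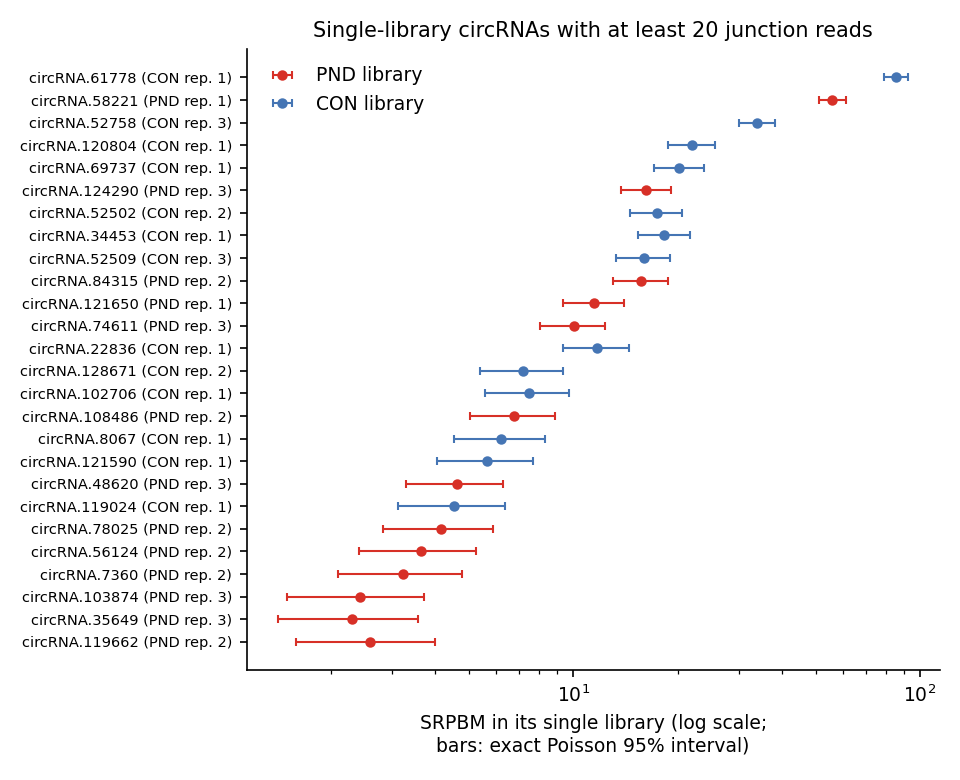
SRPBM in the library that holds it (x axis, log scale) for each of the 26 single-library circRNAs with at least 20 junction reads (y axis, identifier and library), with exact Poisson 95% intervals for counting error. They span 2.31 to 85.5 SRPBM, and 9 of the 13 CON circRNAs come from CON replicate 1.

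High values restricted to few libraries were also seen among circRNAs found in more than 1 library. Among those found in 2 libraries, 13 had at least 20 reads in their higher library and 11 had at least 20 reads in both. The highest, circRNA.60150, had 4046 reads in PND replicate 3 (467 SRPBM) and 3038 in CON replicate 1 (418 SRPBM), and circRNA.129510 had 988 reads in PND replicate 1 and 464 in CON replicate 2. Each of these pairs joined a PND and a CON library, and the other 4 libraries had a value of 0. These 2 were named after their values had been seen.

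Last, the comparison of the PND with the CON group was fitted across all 71481 listed circRNAs, using limma on log2(SRPBM + 0.256) with Benjamini-Hochberg adjustment. A filter that needs a value in 2 or more libraries leaves none of the single-library circRNAs to be tested. Without a filter, 2 of the 28502 had an adjusted p under 0.05, against 0.634% of all listed circRNAs, and 18 had an unadjusted p under 0.05, against 6.51% of all listed circRNAs. Since detection in these libraries defines the members, nothing is read from these counts. The 2 called were circRNA.61778, whose log2 change from CON to PND was -2.80 (SE 0.64) at a limma adjusted p of 0.00453, and circRNA.58221, whose log2 change was 2.59 (SE 0.66) at a limma adjusted p of 0.0193. The other highest members did not pass here, with limma adjusted p from 0.0724 for circRNA.52758 to 0.289 for circRNA.84315.

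These calls do not rest on agreement between mice. A value in 1 of 3 libraries of a group, with 0 in all others, gives an ordinary t of 1 in size whatever its level, and this was so for all 28502. The moderated t of limma, which borrows the spread of other circRNAs, ranged from 0.786 to 4.36 in size over the same circRNAs. With limma voom on the inferred reads the adjusted p was 0.0111 for circRNA.61778 and 0.138 for circRNA.58221, which was no longer called, and 0.0473 for circRNA.52758, which then passed. With limma at a pseudocount of 0.0641 no single-library circRNA was called (3 at an unadjusted p under 0.05), while 488 of all 71481 listed circRNAs were called (5193 at an unadjusted p under 0.05). With 1.03 there were 13, against 428 of all listed circRNAs.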

How the data were processed

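RNA from 6 prefrontal cortex samples (PND, n = 3; CON, n = 3; groups from the treatment label) was sequenced after rRNA removal and RNase R digestion. According to the methods, the authors used Seqtk for read filtering and BWA-MEM for mapping, called back-splice junctions with CIRI, and merged and renumbered circRNAs by location. The processing notes of the submitters also name Bowtie 0.12.2 and the builds mm8 and mm9, with no role. The deposited signal values are SRPBM, with a file per sample. In each file 100% of the values were whole multiples of the same step at a tolerance of 0.001 steps (largest distance 3.42e-06), and the smallest positive value was taken as 2 reads.

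From these, circRNAs were joined by identifier, and members, read classes, exact Poisson intervals and thinned reads (without replacement, values under 2 reads set to 0) were computed with Python 3.11.15, numpy 2.4.6, pandas 2.3.3 and scipy 1.17.1. The group comparison used limma 3.58.1 in R 4.3.3, fitted with a trend of variance on mean and with group alone. The pseudocount of 0.256 is the median over libraries of the smallest positive value, and the added constant makes changes of low circRNAs look smaller than they are. CircRNAs at 0 in every library fitted were left out. No file lists a value of 1 step, so that a step equals 1 read is an inference that the smallest values do not settle. The planned count model was therefore not run, and limma voom on the same whole numbers was fitted as an alternative, which rests on that inference too. The code was tested on simulated data. Named circRNAs were the highest member of each library and up to 2 per group past adjustment. Members, lists and rules were chosen with earlier results of these data known.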

Additional observations from a re-analysis of the deposited data

How the results depend on the processing

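Thinning and stricter limits were applied to counts of single-library circRNAs, and limma voom was added after the data were seen. The 28502 members became 9897 with at least 5 reads needed, stayed within 1.5 times with 3 reads or thinning, and numbered 26568 to 27449 with a library left out. The mean difference per library, PND minus CON, was 2672, and it kept its direction at 1695 with 3 reads, 832 with 5 reads, 990 after thinning and 2619 to 3544 with a library left out. The difference in the percent of junction reads was 0.269 percentage points, 0.126 after thinning, and 0.266 to 0.544 with a library left out, although the libraries of the groups overlapped after thinning and without PND replicate 3. The highest of these was without CON replicate 1, when circRNA.60150, otherwise found in 2 libraries, entered with its 4046 reads in PND replicate 3. Without PND replicate 3, circRNA.60150 entered with its 3038 reads in CON replicate 1. The percent with 2 reads was 48.9 to 51.8 with a library left out and 56.0 after thinning.

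The 2 members past adjusted p under 0.05 in limma became 0 with the pseudocount of 0.0641 and 13 with 1.03. The same 2 were called at the same total signal and with the replicate number as a block (replicate block). Limma voom also called 2, both lower in PND, of which 1 was shared: circRNA.58221 was lost (adjusted p = 0.138) and circRNA.52758 gained (adjusted p = 0.0473). Leaving out a library gave 0 to 7: 0 without each PND replicate (7, 0 and 6 at an unadjusted p under 0.05), and 4, 7 and 6 without CON replicates 1 to 3. Calls over all listed circRNAs moved as well, from 453 to 2, 0 and 2 without PND replicates 1 to 3 and to 2005, 216 and 219 without CON replicates 1 to 3, so nothing about the members is read from these counts. The causes were not tested. Same-numbered libraries are different mice and did not deviate together (correlations -0.015, -0.035 and 0.047). These correlations were taken over the 33140 circRNAs found in at least 3 libraries, which include no member. A filter on 3 libraries gave no value. The median member has 2 reads, so its level is known only within the wide counting interval of 2 reads. Thinning matched the junction reads, not the total reads of the samples. The part of either in membership was not tested.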

Other observations

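The identifier numbers were not used to choose the circRNAs. They ran from 2 to 134782 with 63300 numbers in that range not listed in these files. According to the methods circRNAs were renumbered after merging by location, but whether the numbers follow the genome is not stated. The level of a circRNA, as log2 of its summed reads plus 1, had a Pearson correlation of 0.11 with that of the next listed circRNA, 0.031 at 5 steps and -0.0046 at 100 steps. These are correlations across circRNAs, which share libraries and are not independent replicates.

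Single-library circRNAs were spread evenly over the numbering, with 38.3% to 41.0% of the listed circRNAs in each of 10 equal blocks. The next listed circRNA after a single-library circRNA was another one in 43.2% of cases, and after a circRNA found in all 6 libraries in 34.0%, against 39.9% over all. The next was a circRNA found in all 6 libraries in 19.5% and 28.3% of cases. Where 2 single-library circRNAs had consecutive numbers, they came from the same library in 1136 of 6225 pairs (18.2%), and the shares of the libraries alone give 18.1%.

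The high members were then set beside their neighbours in number. Of the 26 circRNAs with at least 20 reads, 2 (7.69%) had such a neighbour within 5 numbers. It was found in the 5 other libraries and at 0 in their own. The share was 4.58% among members with 2 reads and 4.72% among all members. With only 2 such circRNAs, nothing is read from this difference. In 1 of the 2 the levels were alike. circRNA.52509 had 126 reads in CON replicate 3 alone, whereas circRNA.52511 had 162, 160 and 149 reads in PND replicates 1 to 3, 141 and 5 in CON replicates 1 and 2, and 0 in CON replicate 3. A further member close in number but outside this window, circRNA.52502, had 134 reads in CON replicate 2 alone, the library where circRNA.52511 had 5. These circRNAs were set side by side after their values were seen. Whether they are the same back-splice site under separate numbers was not tested.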
